A study of Mus musculus with 9 samples.

Results

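The genes of MHC class I antigen presentation and of the immunoproteasome were examined in the ventricles of mice at postnatal day 7. The 10 genes are H2-K1, H2-D1, B2m, Tap1, Tap2, Tapbp, Psmb8, Psmb9, Psmb10 and Nlrc5. They were taken from 38293 genes of a raw count table by their symbols, and all 10 were among the 15318 genes with enough counts to test. The smallest count of any of them in any library was 10, for Nlrc5. Poly(A) RNA was sequenced from 5 Arid1a f/f control mice, which carry the floxed Arid1a gene and no Cre, and from 4 aMHC-Cre;Arid1a f/f cKO mice, in which the cardiomyocyte promoter of αMHC drives Cre. No Cre-only group is among these libraries, so effects of Cre and of Arid1a loss cannot be told apart. Reads came from whole ventricles, in which fewer cells of a type and less RNA per cell cannot be told apart.

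MHC class I molecules carry peptides of intracellular proteins to the cell surface, where cytotoxic T cells read them. The peptides are cut by the proteasome, pumped into the endoplasmic reticulum by the TAP transporter and loaded onto a heavy chain bound to β2-microglobulin. Interferons raise the genes of this pathway and exchange the catalytic subunits of the proteasome for those of the immunoproteasome, and cardiomyocytes are known for low class I levels at rest.

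The libraries were compared in 2 ways. They were first divided by their level of Rps3a3, a copy of the ribosomal protein gene Rps3a1. Levels are given as CPM, the counts of a gene scaled to a common library size. At most 0.521 CPM was found in the Rps3a3-low set, made up of controls 1 and 2 with cKO 1 to 3. At least 99.7 CPM was found in the Rps3a3-high set, made up of controls 3 to 5 with cKO 4, and no library lay near the limit of 10 CPM. Rps3a1 itself went the other way, at 253.1 to 275.6 CPM in the low and 70.8 to 75.7 CPM in the high libraries, and reads could be shared between such near-identical copies. The low libraries are the first 5 and the high libraries the last 4 columns of the deposited table. No label says what the column order stands for, and its part in the set differences was not tested. The sets are not given by the labels, and the 10 genes, a pathway, were chosen by their measured levels in these same libraries. Differences between the sets are therefore given as a description with no test. The genotypes were then compared with edgeR's quasi-likelihood test across all genes.

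Total counts ran from 31011055 to 40073801 per library. Arid1a, the deleted gene, lay at 128.0 to 148.1 CPM in control and 100.3 to 112.9 CPM in cKO libraries, and edgeR put its log2 change at -0.39 (SE 0.06, adjusted p = 0.0013), so the groups matched their labels. The 10 cardiomyocyte markers summed to 56140 to 70070 CPM, and the 5 atrial markers to 89.0 to 216.8 CPM. Control replicate 3 stood apart by its lymphocyte markers, which summed to 19.1 CPM against 5.10 to 7.93 CPM in the other libraries. Its Cd8a level, a marker of cytotoxic T cells, was 4.43 CPM, and the others held at most 0.301 CPM.

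Promoter sequence of 8 of the 10 genes was available from RefSeq on GRCm38.p6, as windows of 250 bases before to 50 bases after an annotated start. Tap2 and Nlrc5 were not matched. The stretches upstream of H2-K1 and B2m are shown because they hold the letters of several elements that class I genes are known for. Capitals mark matches on either strand to GGGNNTTCC (kappa B), GAANNGAAA (ISRE, the interferon-stimulated response element, for which a longer form was searched too), TGACG (the core of the X2 box, which the CRE shares) and CCAAT (the Y box). In the longer form a further A follows the first GAA. It was added after the sequences had been read. The ISRE capitals of B2m mark that form, and B2m held no match to the shorter form. The H2-K1 stretch lies at chr17:34000353-34000464 on the minus strand, and that of B2m at chr2:122147542-122147644 on the plus strand.
H2-K1: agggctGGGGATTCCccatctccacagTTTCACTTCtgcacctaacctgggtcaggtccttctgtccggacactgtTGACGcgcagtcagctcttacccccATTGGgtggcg
B2m: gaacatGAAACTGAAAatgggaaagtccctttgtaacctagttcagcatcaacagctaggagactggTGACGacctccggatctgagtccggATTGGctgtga

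The corresponding stretch before the RefSeq start of H2-D1, at position 35263094, was identical to that of H2-K1 at 101 of 112 bases (90.2%). GENCODE starts H2-D1 further upstream, and all 250 bases before the RefSeq start lie in a GENCODE exon of the gene. Its segment from the kappa B match to the ISRE match, at chr17:35262923-35262952 on the plus strand, is set out next. It is followed by those from the X2 match to the Y box match of H2-D1 (chr17:35262993-35263022, plus strand), H2-K1 (chr17:34000359-34000388, minus strand) and B2m (chr2:122147609-122147638, plus strand). They are shown because TGACG and ATTGG stood 20 bases apart in each.
H2-D1, kappa B to ISRE: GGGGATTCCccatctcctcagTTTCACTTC
H2-D1, X2 to Y box: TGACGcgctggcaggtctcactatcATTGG
H2-K1, X2 to Y box: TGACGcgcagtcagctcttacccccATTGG
B2m, X2 to Y box: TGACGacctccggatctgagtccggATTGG

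That spaced pair was noticed in these sequences and then searched on both strands, and 31 of 32851 promoter windows held it (0.094%). The windows of H2-K1, H2-D1 and B2m were among them, as was that of H2-M3, a further class I gene. Of all windows, 7.52% held GAANNGAAA, 3.44% the longer ISRE form, 5.82% GGGNNTTCC, 20.8% the X2 letters and 37.4% the Y box letters. The X2 letters were found for 5 and those of the Y box for 6 of the 8 class I genes with a window. The gamma-interferon element letters TTCNNNGAA stood in 8.30% of all windows and, among these 8 genes, in that of Psmb8. For Tap1, Tapbp, Psmb8 and Psmb9 too, all 250 bases before the RefSeq start lie in GENCODE exons, of the gene or of a neighbour. Their matches, like those of H2-D1, therefore fall in annotated exons. Tap1 and Psmb9 start on opposite strands 226 bases apart, at positions 34187556 and 34187330 of chromosome 17, so their windows share most of their sequence. These matches are letters in a window and were not tested as sites.

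Nlrc5 (ENSMUSG00000074151, GRCm38 chromosome 8, 94434356 to 94527272) encodes the transactivator of class I genes and differed most between the library sets. In controls 1 to 5, in that order, it reached 10.9, 84.9, 1.52, 0.472 and 0.323 CPM, and in cKO 1 to 4 it reached 29.9, 14.7, 46.7 and 0.702 CPM. The 5 Rps3a3-low libraries all lay above the 4 Rps3a3-high libraries, at a mean of 37.4 ± 30.1 CPM (SD, n = 5) against 0.755 ± 0.535 CPM (SD, n = 4). The log2 difference, fitted together with genotype, was 5.76. Within the low set control replicate 2 held the most and control replicate 1 the least, and without control replicate 2 the difference was 4.49.

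The class I chains differed less, and they overlapped between the sets. H2-K1 (ENSMUSG00000061232, chromosome 17, 33996017 to 34000347), a classical heavy chain, had control levels of 50.2, 89.4, 74.99, 25.8 and 32.5 CPM and cKO levels of 70.4, 72.7, 83.5 and 27.9 CPM. H2-D1 (ENSMUSG00000073411, chromosome 17, 35262730 to 35267499), the other classical heavy chain, had control levels of 81.4, 116.6, 98.4, 56.9 and 55.5 CPM and cKO levels of 90.5, 98.9, 104.8 and 48.5 CPM. In both genes control replicate 3, a Rps3a3-high library, reached the levels of the low set, while the other 3 high libraries lay below every low library.

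B2m (ENSMUSG00000060802, chromosome 2, 122147686 to 122153083), which encodes the light chain, was the most abundant of the 10 per kb of exon. It had control levels of 145.8, 295.0, 191.1, 106.3 and 102.0 CPM and cKO levels of 258.9, 182.5, 275.3 and 124.8 CPM. Here too control replicate 3 alone crossed into the range of the low set. The log2 differences between the sets were 0.94 for H2-K1, 0.69 for H2-D1 and 0.81 for B2m. Control replicate 3 is the library with the high lymphocyte markers, and their part in its class I level was not tested. Heavy chain genes resemble each other closely, and reads could have been divided between them in counting.

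The genes of peptide transport and loading separated the sets without overlap. Tap1 (ENSMUSG00000037321, chromosome 17, 34187553 to 34197225) and Tap2 encode the paired subunits of the peptide transporter. Tap1 had control levels of 33.1, 115.8, 10.2, 7.68 and 8.38 CPM and cKO levels of 55.7, 51.2, 76.7 and 8.42 CPM. Its log2 difference between the sets was 3.0, or 2.38 without control replicate 2, which held more than any other library.

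Tap2 (ENSMUSG00000024339, chromosome 17, 34203527 to 34216321) had control levels of 23.1, 43.1, 12.7, 10.6 and 11.4 CPM and cKO levels of 23.4, 28.6, 36.5 and 12.4 CPM, a log2 difference of 1.41. The partner subunits of the transporter thus differed by unequal amounts between the sets. Tapbp (ENSMUSG00000024308, chromosome 17, 33915899 to 33929292), the gene of tapasin, which tethers class I molecules to the transporter, had control levels of 68.5, 114.8, 46.2, 45.1 and 45.2 CPM and cKO levels of 86.0, 85.5, 96.1 and 47.7 CPM. The 4 high libraries lay within 45.1 to 47.7 CPM of each other, and the log2 difference was 0.97, or 0.75 without control replicate 2.

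The immunoproteasome subunits also separated the sets. Psmb8 (ENSMUSG00000024338, chromosome 17, 34197721 to 34201454) had control levels of 14.8, 41.9, 9.39, 5.57 and 5.50 CPM and cKO levels of 25.7, 21.7, 35.7 and 6.15 CPM. Psmb9 (ENSMUSG00000096727, chromosome 17, 34181987 to 34187764) had control levels of 9.72, 32.6, 3.93, 2.23 and 2.30 CPM and cKO levels of 17.1, 16.1, 25.8 and 2.4 CPM. In both genes control replicate 2 was highest, and control replicate 3 was highest among the high libraries. The log2 differences between the sets were 2.10 for Psmb8 and 2.95 for Psmb9, and 1.64 and 2.38 without control replicate 2.

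Psmb10 (ENSMUSG00000031897, chromosome 8, 105935735 to 105938444), the remaining inducible subunit, followed another order. It had control levels of 44.8, 51.5, 28.0, 26.5 and 24.8 CPM and cKO levels of 48.4, 70.9, 59.8 and 40.5 CPM. The highest library was cKO replicate 2 and not control replicate 2, and the high library with the most was cKO replicate 4. The log2 difference between the sets was 0.75.

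**Figure D1:**
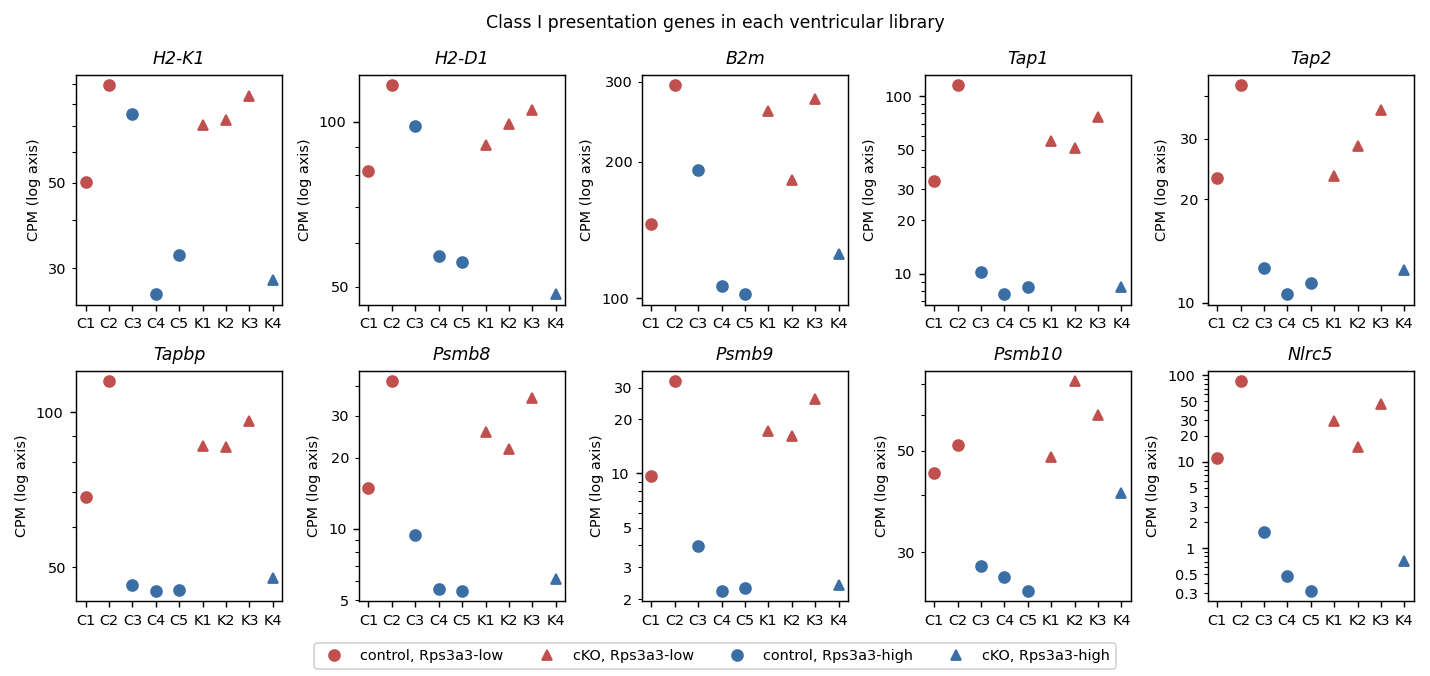
Level of each of the 10 genes in CPM (log axis, range set per panel) in control replicates 1 to 5 (C1 to C5, circles) and cKO replicates 1 to 4 (K1 to K4, triangles), 1 point per library, Rps3a3-low in red and Rps3a3-high in blue. In 7 panels every red point lies above every blue point, and in those of H2-K1, H2-D1 and B2m the blue point C3 lies among the red ones.

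Of the 10 genes, 7 were higher in every Rps3a3-low than in every Rps3a3-high library, against 4.46% of all genes tested. In the opposite direction 3.56% of all genes separated the sets, which makes 8.02% in either. All 10 exceeded a fitted difference of 1.5-fold, which 4.59% of all genes did in this direction and 2.45% in the other, and 5 exceeded 2-fold, against 1.77%. Since the genes were chosen with these values known, the shares describe the list only. Without control replicate 3 all 10 separated the sets (6.01% of all genes), and leaving out any other library left the count at 7, while the share of all genes ran from 4.92% without control replicate 4 to 10.6% without cKO replicate 4. The median log2 difference was 1.19 for the 10 genes and 0.00 for all genes tested. In control libraries alone, 2 against 3, the median of the 10 was 1.27.

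Levels of different genes were compared per kb of annotated exon. B2m led with a mean of 217.3 CPM per kb over the 9 libraries and exceeded H2-D1, at 32.4 CPM per kb, in all 9. Next came Psmb10 at 25.8, H2-K1 at 19.9 and Tapbp at 19.4 CPM per kb. H2-K1 exceeded Tapbp in 4 of 9 libraries, so their order was not resolved.

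Tap1 followed at 7.45, Tap2 at 5.93, Psmb8 at 5.47, Psmb9 at 3.41 and Nlrc5 at 2.49 CPM per kb. Tap1 exceeded Tap2 in 4 of 9 libraries and Tap2 exceeded Psmb8 in 6 of 9, so these neighbours changed places between libraries. Tap1 averaged 12.2 CPM per kb in the low and 1.58 CPM per kb in the high set, against 8.18 and 3.12 CPM per kb for Tap2. Nlrc5 was last in both sets, at 4.41 and 0.0889 CPM per kb.

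Cells that lack the immunoproteasome use Psmb5, Psmb6 and Psmb7 in place of Psmb8, Psmb9 and Psmb10. Among the sums of each pair per kb of exon, Psmb9 made up 3.97% to 12.0% in the low libraries and 1.04% to 1.74% in the high libraries. Psmb10 made up 39.2% to 50.9% in the low and 24.8% to 35.4% in the high libraries. Neither pair overlapped between the sets.

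For Psmb8 and Psmb5 the shares overlapped, at 11.3% to 48.0% in the low and 8.13% to 15.2% in the high libraries. The 48.0% was that of control replicate 2, which had the lowest Psmb5 level of the low set, 12.1 CPM. The next low library, cKO replicate 3, reached 26.0%. The low library in the overlap was control replicate 1, at 11.3% and with the highest Psmb5 level of all, 30.8 CPM, while control replicates 3 and 4 and cKO replicate 4 reached 12.4% to 15.2%. Psmb5 was itself higher in the low set, by a log2 difference of 0.79, with 12.1 to 30.8 CPM in the low and 8.24 to 17.6 CPM in the high libraries. Psmb6 and Psmb7 varied less, and their fitted differences between the sets stayed under 1.5-fold. The other 14 genes of the core particle and its assembly had a median log2 difference of -0.03, with 0 beyond 1.5-fold in either direction.

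**Figure D2:**
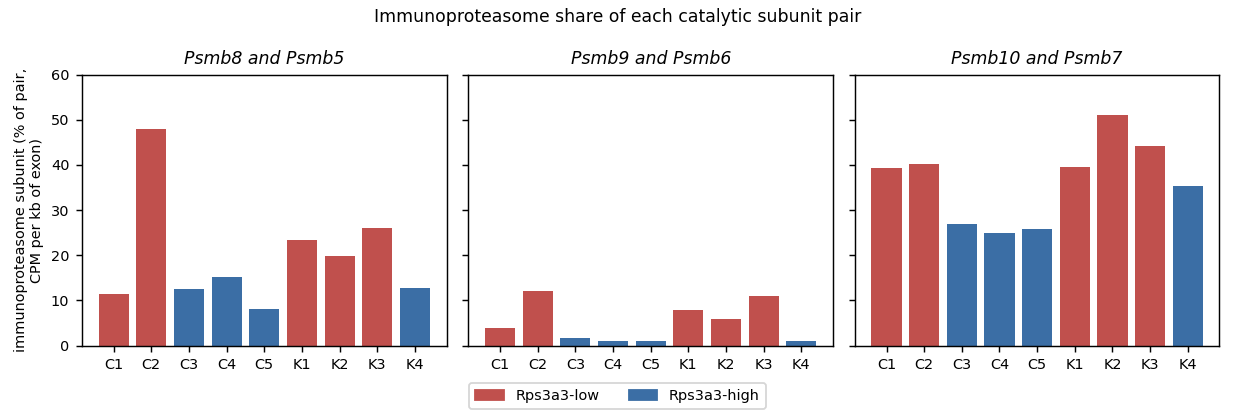
Share of the immunoproteasome subunit in each catalytic pair, in percent of the pair's summed CPM per kb of exon, in control (C1 to C5) and cKO (K1 to K4) libraries, 1 bar per library, Rps3a3-low in red and Rps3a3-high in blue. The share of Psmb9 is at least 3.97% in every red bar and at most 1.74% in every blue bar, while the shares of Psmb8 overlap between the colours.

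By genotype, 0 of the 10 genes passed an adjusted p of 0.05 in edgeR's test or in DESeq2, against 16.3% of all genes tested in edgeR (8.25% higher and 8.03% lower in cKO). With a change of over 1.5-fold required as well, it was again 0 of 10, against 6.72% of all genes (4.01% higher and 2.72% lower). At an unadjusted p under 0.05 there was 1, Psmb10, against 29.7% of all genes. All 10 had a positive log2 fold change in cKO with genotype as the only term, with a median of 0.32 against 0.01 for all genes, and all 10 overlapped between the genotypes. Of all genes, 8.16% were higher and 8.58% lower in cKO without overlap. The low set holds 3 of 4 cKO but 2 of 5 control libraries, so set and genotype are partly confounded. With the library set as a further term, 7 of the 10 turned negative and the median was -0.11.

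Nlrc5 changed by 0.22 (SE 1.65, adjusted p = 0.944 by edgeR) with genotype alone and by -0.58 (SE 0.80, adjusted p = 0.681) with the set as a term. Tap1 went from 0.45 (SE 1.02) to -0.21 (SE 0.38), Psmb9 from 0.59 (SE 0.99) to -0.15 (SE 0.40) and Psmb8 from 0.53 (SE 0.76) to -0.08 (SE 0.35). H2-K1 went from 0.22 (SE 0.46) to -0.17 (SE 0.42), H2-D1 from 0.07 (SE 0.30) to -0.21 (SE 0.23) and Tap2 from 0.32 (SE 0.51) to -0.06 (SE 0.20). B2m, at 0.32 (SE 0.38) and 0.04 (SE 0.31), and Tapbp, at 0.30 (SE 0.34) and 0.00 (SE 0.13), stayed positive. Without control replicate 2 the change with genotype alone was 2.79 for Nlrc5, 1.75 for Psmb9, 1.69 for Tap1, 1.33 for Psmb8, 0.80 for Tap2, 0.63 for B2m, 0.62 for Tapbp, 0.47 for H2-K1 and 0.23 for H2-D1. None of these 9 passed in any of the 3 fits.

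Psmb10 had the smallest standard error and differed from the rest. It had a control mean of 35.1 ± 12.2 CPM (SD, n = 5) and a cKO mean of 54.9 ± 13.3 CPM (SD, n = 4), which edgeR gave as a log2 change of 0.65 (SE 0.26, adjusted p = 0.134) and which did not pass. With the library set as a term the change was 0.43 (SE 0.11, adjusted p = 0.02), and Psmb10 was the one gene of the 10 to pass, against 19.9% of all genes in that fit (10.3% higher and 9.62% lower in cKO). In a fit blocked on replicate number, although no label says that the numbers pair animals, it passed too (0.57, adjusted p = 0.0422 by edgeR), as it did without control replicate 2 (0.82, adjusted p = 0.0381). In the 5 low libraries alone it was 0.31 (adjusted p = 0.353 by edgeR) and did not pass, where 5.44% of all genes did, and there the genotypes overlapped. In the high set the single cKO library, at 40.5 CPM, lay above the 3 controls, at 24.8 to 28.0 CPM, with a log2 difference of 0.61 and no test.

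**Figure D3:**
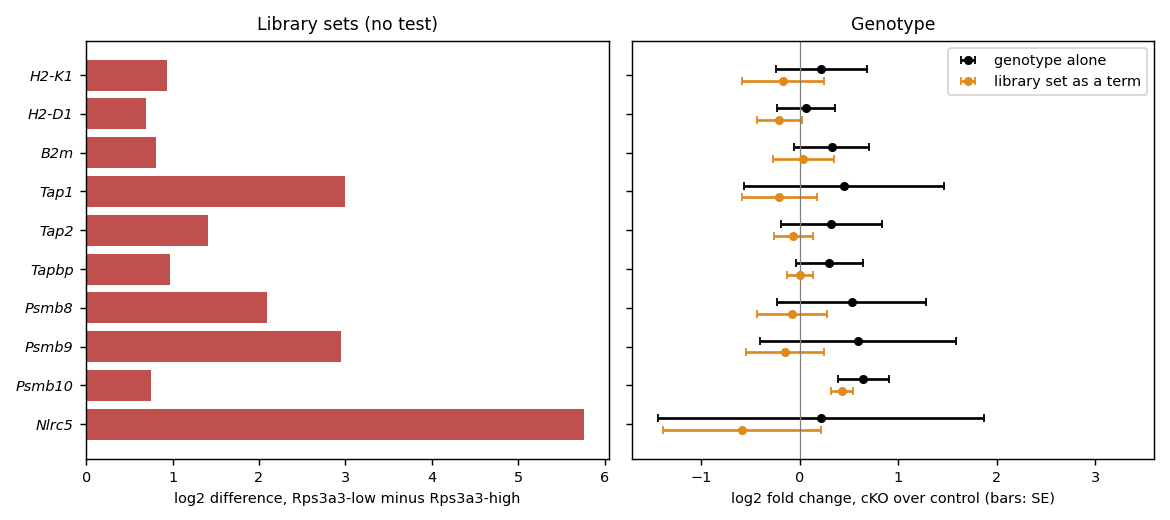
Left, log2 difference of each of the 10 genes between Rps3a3-low and Rps3a3-high libraries, from a fit with genotype and with no test. Right, log2 fold change of cKO over control (points) with its standard error (bars), with genotype alone in black and with the library set as a term in orange: every black point is positive and 7 of the orange points are negative, and Psmb10 lies at 0.65 and 0.43.

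The 10 genes did not move alone between the library sets. Of 38 tested interferon response genes, 35 were higher in every low than in every high library, with a median log2 difference of 2.48, against 4.46% and 0.00 for all genes. By genotype 0 of the 38 passed an adjusted p of 0.05 in edgeR, while Ifit2 and Oas3 had an unadjusted p under 0.05, against 16.3% and 29.7% of all genes. With the library set as a term 1 of the 38 passed, against 19.9% of all genes in that fit (9.62% lower in cKO). It was Ifi27, which fell by 0.33 (adjusted p = 0.032 by edgeR). Among 23 tested regulators of class I genes, 8 were higher without overlap in the low set (4.46% of all genes) and 1, Nfyb, was lower at -0.27 (3.56% of all genes). The higher genes included Irf7 at 2.77 and Irf1 at 1.86 in log2 difference, which are transcription factors of the interferon response. Irf7 was at 39.9 CPM in control replicate 2, at 11.9 to 27.0 CPM in the other low libraries and at 2.88 to 3.77 CPM in the high libraries.

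By genotype, 3 of the 23 regulators fell in cKO and 0 rose, against 8.03% and 8.25% of all genes. Ifngr2, a chain of the interferon gamma receptor, had a control mean of 179.7 ± 13.2 CPM (SD, n = 5) and a cKO mean of 140.2 ± 3.73 CPM (SD, n = 4). Its log2 change was -0.36 (SE 0.06, adjusted p = 0.0024 in edgeR). Rfxank, a subunit of the RFX complex that binds MHC promoters, fell by 0.31 (SE 0.09, adjusted p = 0.0334). Jak1, a kinase of interferon receptors, fell by 0.23 (SE 0.07, adjusted p = 0.0316). Each of them passed also once the library set was added, and each was under 1.5-fold. In the low libraries alone Rfxank, at -0.41 (adjusted p = 0.095 by edgeR), and Jak1, at -0.22 (adjusted p = 0.276), did not pass. Ifngr2 passed there, at -0.41 (adjusted p = 0.0223), as did 5.44% of all genes.

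Further class I and class I-like genes were compared as 13 tested genes, of which 5 (H2-T22, H2-T23, H2-T24, H2-M3 and Hfe) were higher without overlap in the low set and 1 was lower, against 4.46% and 3.56% of all genes. H2-T24 at 1.98 and H2-T23 at 1.67 had large log2 differences, while Cd1d2, which GENCODE classes as a polymorphic pseudogene, was lower in the low set at -3.13. Cd1d2 lay at 0.0903 to 0.424 CPM in the low and 1.75 to 2.42 CPM in the high libraries, and its reads could be shared with the near-identical Cd1d1. Cd1d1 itself overlapped between the sets, with a log2 difference of 0.18. Cd1d2 starts at 86986551 of chromosome 3, on which Rps3a1 starts at 86137940, and a link between them was not tested. By genotype 1 of the 13 passed, a share near the 8.25% of all genes higher in cKO. It was Fcgrt, the neonatal Fc receptor, which rose by 0.46 (SE 0.13, adjusted p = 0.0265 by edgeR). In the low libraries alone Fcgrt did not pass, at 0.32 (adjusted p = 0.245 by edgeR).

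Among 14 genes of peptide trimming and loading, 2 were higher and 1 (Canx, at -0.18) was lower without overlap in the low set (4.46% and 3.56% of all genes), and the median log2 difference was -0.10. Tapbpl, a relative of tapasin, differed by 1.20 and Erap1, which trims peptides in the endoplasmic reticulum, by 0.59. By genotype Thop1, a peptidase of the cytosol, rose by 0.59 (SE 0.16, adjusted p = 0.0231 by edgeR) and Sec61a1, a channel subunit of the endoplasmic reticulum, by 0.28 (SE 0.08, adjusted p = 0.0364), and 0 of the 14 fell, against 8.25% and 8.03% of all genes. Of the 4 proteasome activators, Psme2 was higher without overlap in the low set, with a log2 difference of 0.59, and Psme3 was lower at -0.08.

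Psme1 changed by genotype by -0.31 (SE 0.17, adjusted p = 0.240) and, with the library set as a term, fell by 0.49 (adjusted p = 0.0015 by edgeR). It was the 1 of the 4 activators to pass in that fit, where 9.62% of all genes fell. In the low libraries alone it did not pass, at -0.43 (adjusted p = 0.0599 by edgeR). It had control levels of 122.1, 151.4, 110.1, 96.2 and 95.6 CPM and cKO levels of 105.2, 93.6, 105.6 and 66.7 CPM. In each set the cKO libraries lay below the controls, whereas over all libraries the genotypes overlapped. The direction was opposite to that of Psmb10 in the same fit.

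**Figure D4:**
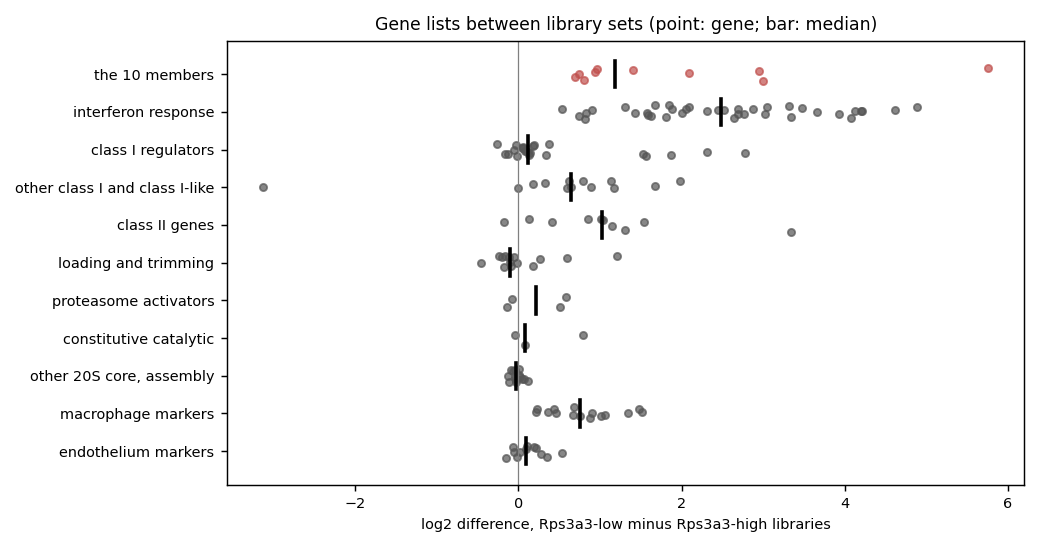
Log2 difference between Rps3a3-low and Rps3a3-high libraries of each tested gene (points) in the 10 class I genes (red) and in other lists (grey), with the list's median as a black bar. The interferon response list lies furthest to the right, with a median of 2.48, while the other core proteasome genes lie around -0.03.

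Marker genes of other cells were set beside these differences. Macrophage markers summed to 232.6 to 328.2 CPM in the low and 148.0 to 190.2 CPM in the high libraries, and 11 of 15 were higher in every low library, among them C1qa, Adgre1 and Cd68, against 4.46% of all genes tested. Pan-leukocyte markers summed to 92.7 to 109.8 CPM and 58.5 to 81.4 CPM, with 4 of 8 higher without overlap. Endothelial markers summed to 2100 to 2280 CPM and 2040 to 2111 CPM, with 1 of 12 higher without overlap, a share near that of all genes. Of the lymphocyte and natural killer cell markers 0 of 6 tested genes separated the sets. By genotype 0 of the 15 macrophage markers passed in edgeR, against 16.3% of all genes, with Lyz2 and Tyrobp at an unadjusted p under 0.05. In the fit with the library set as a term, in which Psmb10 passed, 1 of the 15 passed, against 19.9% of all genes. It was Lyz2, at 0.47 (adjusted p = 0.0215 by edgeR). Lyz2 also passed in the low libraries alone, at 0.55 (adjusted p = 0.0368), where 5.44% of all genes did. With genotype alone 4 of 10 fibroblast markers rose (8.25% of all genes) and 2 of 10 cardiomyocyte markers fell (8.03% of all genes). The part of these cells in the class I differences was not tested.

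Xist, which marks female animals, was at 744.7 CPM or more in controls 2 and 3 with cKO 3 and 4, and at most at 0.283 CPM in the others. In the low set 9 of the 10 class I genes were higher in both Xist-high than in all Xist-low libraries, against 6.63% of all genes, with Psmb10 the exception. In the high set the same held for 8 of 10, against 18% of all genes, H2-K1 and H2-D1 being the exceptions. With Xist class and library set both as terms, Psmb10 changed by 0.41 (adjusted p = 0.0276 by edgeR) by genotype and the other 9 did not pass. The part of sex in these levels was not tested.

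Of the 10 genes, 7 lie within the MHC on chromosome 17, B2m lies on chromosome 2, and Psmb10 and Nlrc5 lie on chromosome 8. In the span from 1 Mb before Tapbp to 1 Mb after H2-D1, GRCm38 chromosome 17, 32915899 to 36267499, 133 other genes were tested. Of these, 16 were higher without overlap in the low set (12.0%, against 4.46% of all genes tested) and 2 were lower. Beyond 1.5-fold higher lay 22 of them (16.5%, against 4.59% of all genes). The 133 still hold genes of the class I-like, class II and macrophage lists, among them H2-T23, H2-T24, H2-Ab1 and Aif1. These shares are therefore not those of unrelated neighbours. Their median log2 difference was 0.18. Psmb9, Tap1, Psmb8 and Tap2 stand next to each other. The first 3 had the largest differences of the span, while H2-T24, H2-T23 and H2-Ab1 exceeded Tap2. The 2 lower genes were Zfp101 at -0.32 and Hnrnpm at -0.18.

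**Figure D5:**
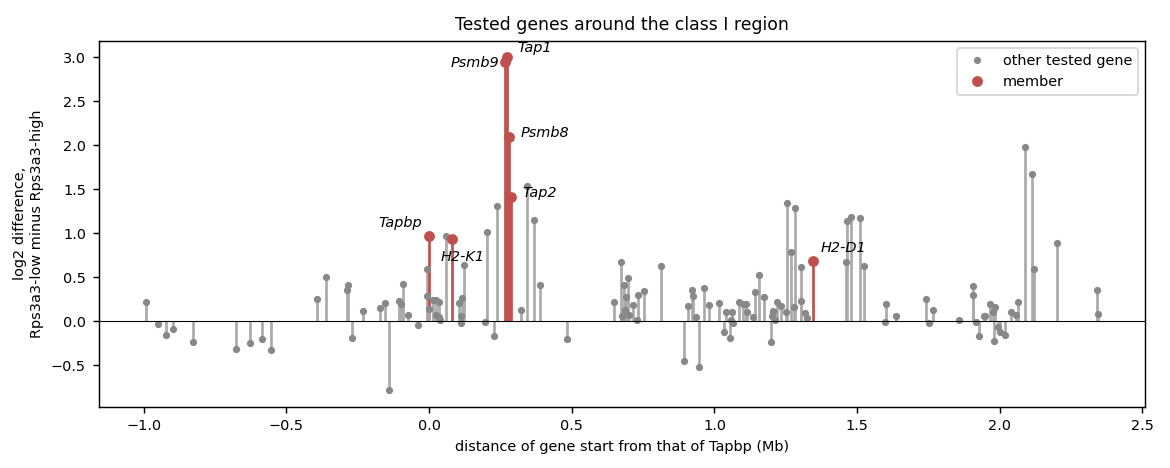
Log2 difference between Rps3a3-low and Rps3a3-high libraries of each tested gene in the class I region (stems), against the distance of its start from that of Tapbp in Mb, with the 7 class I genes of the span in red and other genes in grey. Tap1 at 3.0 and Psmb9 at 2.95 stand highest, among neighbours with a median of 0.18.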

How the data were processed

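The authors deposited raw read counts per gene in 1 table, whose columns were matched to libraries by title. The labels give 5 controls, all used here, whereas the study's methods state 4 and a legend 5. According to the study's methods, stranded TruSeq mRNA libraries were read as single-end 75-base reads and mapped to mm10. The submitters' processing notes name STAR 2.4.2a and HTSeq 0.6.1 without their roles. Which annotation was counted, and with which strand option, is not given in the sources used here, so overlapping and near-identical genes are uncertain. Symbols, coordinates (1-based) and exon lengths came from GENCODE M21 on GRCm38, which mm10 denotes, and 36345 of 38293 identifiers matched.

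Counts were tested in R 4.3.3 with edgeR 4.0.16 (filterByExpr with a minimum count of 10, TMM scaling, robust quasi-likelihood fit, genotype as the only term), two-sided, with p-values adjusted by the Benjamini-Hochberg method over 15318 genes. A gene passed at an adjusted p under 0.05. The standard errors (SE) are not an output of edgeR. They were derived as the size of the log2 change divided by the square root of the F statistic. CPM used the TMM-scaled totals. Alternatives were DESeq2 1.42.0, RLE scaling, no filter, the library set as a term, the replicate number as a block, the Rps3a3-low libraries alone and leaving out each library. A fit with Xist class and library set was added after the data had been seen, as was leaving out libraries in the count of genes without overlap. Fits were tested on simulated counts. The 10 genes, the library sets and the gene lists were chosen with earlier results of these data known. Genes named in the text were the 10, Arid1a, Rps3a3 and Rps3a1, from each pathway list up to 4 genes that passed by genotype, from class I-like genes, catalytic subunits, activators and regulators also up to 3 with the largest set difference, and the 5 most similar genes. Other named genes were chosen after their values were seen, and 1 gene that the rule names is not reported here. The study describes its control hearts as those of littermates, but nothing in the labels says which libraries shared a litter. The p-values measure the spread between these libraries. RefSeq promoter windows (GRCm38.p6) were searched for fixed motifs. Of the listed genes H2-T9, Gbp5 and Gbp6 were not matched by symbol and were not analysed here.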

Additional observations from a re-analysis of the deposited data

Results flagged for a closer look

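Control replicate 2 stood apart from the other 4 controls in 4 of the 10 genes, by a gap to the nearest library that took up more than Dixon's limit of the group's range. It held 84.9 CPM of Nlrc5, where the next control held 10.9 CPM, and 115.8 CPM of Tap1, where the next held 33.1 CPM. It held 41.9 CPM of Psmb8 against 14.8 CPM and 32.6 CPM of Psmb9 against 9.72 CPM. Chance alone gives such a gap in about 1 in 20 groups when the values of a group follow a normal distribution. Here 20 groups were screened, in CPM and not on a log scale. The 4 genes vary together, so the 4 gaps are not separate events. In cKO libraries there was 0 such gap. The control group mixes both library sets, so the rate of 1 in 20 does not apply to it. In control libraries alone the log2 differences between the sets were 5.90 for Nlrc5, 3.09 for Tap1, 2.05 for Psmb8 and 2.90 for Psmb9. The gaps are therefore given as a description of CPM values, and no conclusion is drawn from them.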

How the results depend on the processing

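Genes called by genotype at 1.5-fold numbered 1030, and 620 in the Rps3a3-low libraries only, where fewer libraries were fitted; leaving out each library gave 909 to 1171. Of the 10 class I genes 0 passed with genotype alone, 1 (Psmb10) with the library set as a term, 1 with library set and Xist class and 1 with the replicate block, and 0 to 1 when a library was left out. With the library set as a term the log2 change turned for H2-K1 (-0.17), H2-D1 (-0.21), Tap1 (-0.21), Tap2 (-0.065), Psmb8 (-0.077), Psmb9 (-0.15) and Nlrc5 (-0.58). With library set and Xist class it turned for H2-K1 (-0.17), H2-D1 (-0.23), Tap1 (-0.19), Tap2 (-0.11), Tapbp (-0.021), Psmb8 (-0.073), Psmb9 (-0.10) and Nlrc5 (-0.11). In the Rps3a3-low libraries only it turned for H2-D1 (-0.013), Tap1 (-0.28), Tap2 (-0.16), Tapbp (-0.038), Psmb8 (-0.034), Psmb9 (-0.10) and Nlrc5 (-0.66). None of these passed. Leaving out each library gave -0.052 to 0.26 for H2-D1, negative without control replicate 4 or 5 or cKO replicate 2 or 3. For Nlrc5 it gave -0.39 to 2.79, negative without control replicate 3, 4 or 5 or cKO replicate 3 and highest without control replicate 2. The replicate block turned H2-D1 (-0.056) and called 888 genes. Deviations of same-numbered libraries correlated at 0.0107 to 0.232, and 0 of 4 cKO libraries correlated best with the control of their number. The difference between the library sets enters these deviations, so they cannot settle whether the numbers pair animals. DESeq2, RLE scaling and no filter turned none of the 10. The median set difference ran from 0.96 to 1.40 when a library was left out. Unequal genotype shares of the library sets limit every genotype value here.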

Other observations

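MHC class II molecules present extracellular peptides in professional antigen-presenting cells. Of 10 tested genes of this pathway, 4 (H2-Ab1, Cd74, Ciita and Ctss) were higher in every Rps3a3-low than in every Rps3a3-high library, against 4.46% of all genes tested, and the median log2 difference was 1.02. H2-Ab1, a class II chain, lay at 1.72 to 5.48 CPM in the low and 0.975 to 1.25 CPM in the high libraries. Ciita, the class II counterpart of Nlrc5, lay at 0.331 to 2.98 CPM and 0.121 to 0.194 CPM, a log2 difference of 3.34. The invariant chain gene Cd74 and the protease gene Ctss, which encode no class II chain, reached 10.4 and 21.5 CPM. By genotype 0 of the 10 passed an adjusted p of 0.05 in edgeR, against 16.3% of all genes, and H2-Eb1 had an unadjusted p under 0.05.

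The 5 genes with a mean of at least 5 CPM whose levels over the 9 libraries most resembled the mean profile of the 10 class I genes were Ifi47, Irf7, Acaa1a, Bst2 and Tgtp2, with Pearson correlations of 0.980 to 0.984. The libraries form separate sets, so these values mostly describe the difference between the sets. Acaa1a, a peroxisomal thiolase of fatty acid oxidation, was at 45.5 to 59.98 CPM in the low and 37.4 to 41.5 CPM in the high libraries, a far smaller difference than that of Tgtp2, an interferon-induced GTPase, at 3.31 to 29.5 CPM and 0.0968 to 0.526 CPM.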
